A study of Homo sapiens with 6 samples.

Results

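The NANOG, DPPA3 and GDF3 locus is a stretch of human chromosome 12 where 5 neighbouring genes were followed, GDF3, DPPA3, CLEC4C, NANOG and SLC2A3. All rows of the deposited count table were taken that lay between 50 kb before the outermost start and 50 kb past the outermost end of these genes in GENCODE 44, that is chr12:7639784-8069007 of hg38. This gave 109 of the 171517 rows. A row is a region of open chromatin about 200 bp wide, and each was named by its position. ATAC-seq, in which a transposase cuts and tags accessible DNA, was carried out on naive human embryonic stem (nES) cells of the established H9 line, kept in tt2iLIFGö medium, to ask how a metabolite affects the use of gene regulatory elements. The 3 control libraries, labelled DMSO, received 0 mM and the 3 treated libraries 4 mM of dm-aKG (dimethyl-alpha-ketoglutarate, a cell-permeable form of the metabolite) for 24 h. All cells had been grown on feeder cells, were depleted of them and were then kept on laminin, and all derive from a single line. The study's methods call the 3 libraries of a treatment biological replicates of a single experiment, so the p-values measure the spread within that experiment.

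NANOG encodes a homeodomain transcription factor of the pluripotency network, DPPA3 a chromatin protein of oocytes, germ cells and naive pluripotent cells, and GDF3 a ligand of the TGF-beta family that is made by pluripotent cells. SLC2A3 encodes the glucose transporter GLUT3, SLC2A14 its duplicated neighbour GLUT14, and CLEC4C a lectin of plasmacytoid dendritic cells. The segment that holds NANOG and SLC2A14 was duplicated in tandem, which gave rise to the pseudogene NANOGP1 and to sequence pairs of high identity. Alpha-ketoglutarate is a co-substrate of the dioxygenases that remove methyl groups from histones and DNA.

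In the locus 7 rows were less accessible and 1 was more accessible with dm-aKG, at an adjusted p below 0.01 and a change above 2-fold by edgeR's quasi-likelihood test over all rows. The 7 rows lay in introns of CLEC4C and SLC2A14, and the 1 row in an intron of DPPA3. The row at the canonical NANOG start did not pass the test, with a log2 fold change of -0.09. Sequences of the rows that carry these results are given here from the reference genome, on the plus strand of hg38 and 5′ to 3′, with matches to the searched words in capitals and any stretch of untranslated exon left out. The rows at the starts of NANOG and their tandem copies come first, since these show how the element at the NANOG start is repeated at NANOGP1.

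NANOG upstream start, chr12:7787643-7787793: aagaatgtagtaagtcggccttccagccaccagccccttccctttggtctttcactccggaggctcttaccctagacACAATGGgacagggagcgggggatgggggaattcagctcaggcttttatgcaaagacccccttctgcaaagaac
Tandem copy of it, chr12:7890683-7890889: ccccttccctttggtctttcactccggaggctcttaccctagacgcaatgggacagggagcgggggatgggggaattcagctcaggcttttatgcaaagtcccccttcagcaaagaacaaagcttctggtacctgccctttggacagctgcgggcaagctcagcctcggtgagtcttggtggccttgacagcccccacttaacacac
NANOG canonical start, chr12:7789224-7789401: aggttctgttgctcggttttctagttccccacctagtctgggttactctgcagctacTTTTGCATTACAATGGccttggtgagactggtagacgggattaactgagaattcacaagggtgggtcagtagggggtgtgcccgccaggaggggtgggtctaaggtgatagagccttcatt
Tandem copy of it at NANOGP1, chr12:7892169-7892374: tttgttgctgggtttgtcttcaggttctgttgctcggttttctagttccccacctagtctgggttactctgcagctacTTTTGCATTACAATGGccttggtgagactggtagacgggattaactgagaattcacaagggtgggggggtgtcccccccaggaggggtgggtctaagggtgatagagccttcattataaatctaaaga

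Both rows of the second pair held the run TTTTGCATTACAATGG, in which an OCT-SOX word read on the minus strand overlapped a SOX word read on the plus strand. The row nearest to the DPPA3 start and the strongest row within 1 kb of the GDF3 start follow, with an AP-1 word and a TEAD word in capitals.

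DPPA3 upstream, chr12:7710143-7710342: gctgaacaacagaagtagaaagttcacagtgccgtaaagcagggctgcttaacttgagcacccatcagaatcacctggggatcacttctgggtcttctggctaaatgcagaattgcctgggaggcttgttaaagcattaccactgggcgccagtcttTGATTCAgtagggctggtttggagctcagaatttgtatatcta
GDF3 intron, chr12:7694683-7694890: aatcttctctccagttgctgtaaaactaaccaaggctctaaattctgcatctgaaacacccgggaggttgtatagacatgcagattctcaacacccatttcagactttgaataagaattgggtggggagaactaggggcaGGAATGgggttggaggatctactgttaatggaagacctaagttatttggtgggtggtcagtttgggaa

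The row called more accessible and 1 of the 7 called less accessible are given last, the second with a SOX word in capitals.

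DPPA3 intron, more accessible, chr12:7716498-7716697: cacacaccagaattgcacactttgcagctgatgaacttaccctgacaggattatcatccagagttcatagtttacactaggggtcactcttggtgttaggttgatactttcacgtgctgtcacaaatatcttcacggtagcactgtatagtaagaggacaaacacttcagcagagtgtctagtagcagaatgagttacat
SLC2A14 intron, less accessible, chr12:7846063-7846262: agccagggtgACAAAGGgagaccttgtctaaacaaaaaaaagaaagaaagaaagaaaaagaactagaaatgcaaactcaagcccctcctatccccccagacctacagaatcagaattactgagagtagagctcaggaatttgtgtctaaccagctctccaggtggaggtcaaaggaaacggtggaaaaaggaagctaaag

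Total counts per library lay between 13025674 and 26828622, and TMM factors between 0.9914 and 1.0142. Values below are normalized counts, scaled to the mean library size. The labelled cell type was checked on the strongest row within 1 kb of a start of each marker gene. All 9 naive markers had such a row, with a median of 350 in control, and summed levels over the list of 3323 to 3417 in control and 3371 to 3530 with dm-aKG. Rows were also present at 6 of 6 primed markers, 5 of 6 trophoblast markers, 4 of 4 primitive endoderm markers and 4 of 4 mesoderm and fibroblast markers, with control medians of 173, 257, 180 and 193, so an open start alone did not separate cell types here. Of 4 immune genes, chosen because CLEC4C is known from immune cells, CD4 alone had a row, at 49.1 in control. In bulk libraries fewer cells with an open region and less opening per cell cannot be told apart.

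The locus was dense in open regions. It held 2.54 rows per 10 kb, against 0.644 over the span of chromosome 12. Windows of 50 kb on either side of the pluripotency genes POU5F1 and SOX2 held 35 and 24 rows. A density of this order was therefore not particular to this locus. In control 85 of its 109 rows lay above the median of all rows of the table, and 27 above the 90th percentile. The 109 rows formed 64 sites when rows at most 1 kb apart were joined, and 36 of these sites held 1 row. The median width of a row was 203 bp and the largest 395 bp. Counts in every library were above 0, and 108 rows had over 10 counts in every library.

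**Figure D1:**
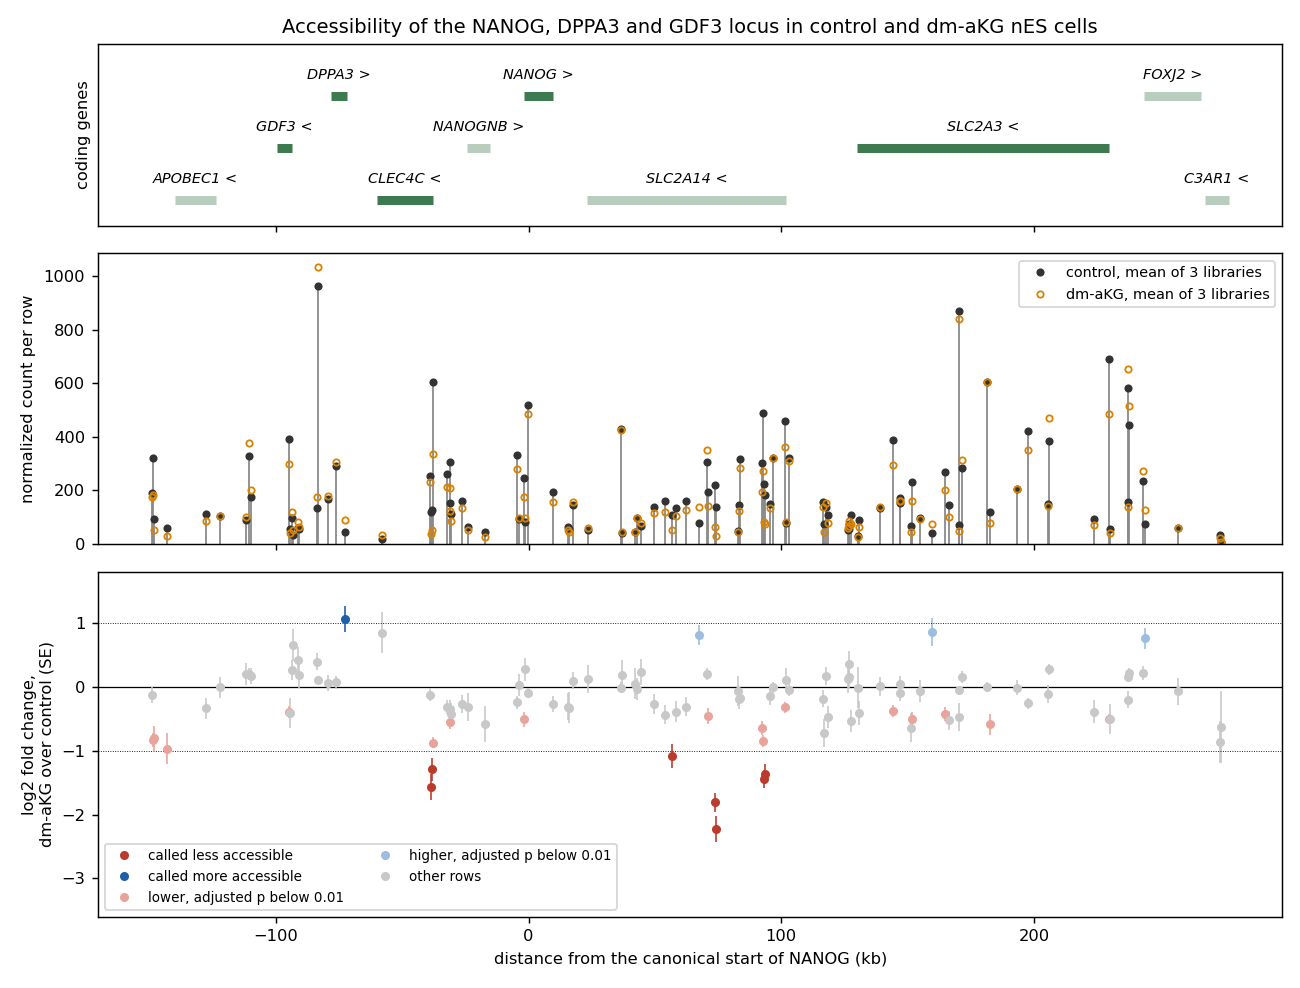
Map of the locus by distance from the canonical NANOG start in kb. Top, coding genes with their direction (listed genes dark); middle, mean normalized count of each of the 109 rows in control (filled) and dm-aKG (open), 3 libraries each; bottom, log2 fold change of each row with its standard error. The 7 less accessible rows lie at CLEC4C and SLC2A14, while the row at the NANOG start is at -0.09.

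With dm-aKG the locus as a whole had a lower count. The summed normalized count was 21333, 21938 and 20533 in the control libraries and 18933, 18936 and 18417 in the dm-aKG libraries. Every dm-aKG library was below every control library, with a mean of 18762 ± 299 against 21268 ± 705 (SD, n = 3 each). The log2 difference was -0.18 (exact two-sided permutation test, p = 0.1, the smallest that 3 against 3 can give). Without the 8 called rows the log2 difference was -0.14, with the same p of 0.1 in the exact permutation test. The locus took 0.105% to 0.112% of the counts of a control library and 0.0945% to 0.0984% of those of a dm-aKG library.

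The surroundings of POU5F1 and SOX2, the genes of the network's other core factors, were cut with the same 50 kb on either side. Each window was set by a single gene, with 35 and 24 rows, against 109 rows around 5 genes here. Their summed counts differed by -0.03 each on the log2 scale, the groups overlapped, and p was 0.2 for both in the exact permutation test. The ratio of the whole 5-gene locus to the POU5F1 locus was 3.60 ± 0.150 in control and 3.24 ± 0.0641 with dm-aKG (SD, n = 3 each). Its ratio to the SOX2 locus was 7.06 ± 0.313 and 6.38 ± 0.259. Neither ratio overlapped between the groups, and the exact permutation test gave p = 0.1 for each, again the smallest possible. These ratios were chosen after the sums had been seen. Within the locus the 28 rows nearest to SLC2A14 fell from a mean sum of 5403 to 4272, and the 9 nearest to NANOG from 1737 to 1547. Rows nearest to DPPA3 and FOXJ2 rose. The ratios thus describe the 5-gene locus and not NANOG alone.

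Of the 109 rows 7 were called less accessible, which is 6.42%, against 1.96% of all rows of the table. The POU5F1 locus had a like share, with 3 of 35 rows called less accessible (8.57%) and 14.3% lower, and the SOX2 locus had 0 of 24 called and 4.17% lower. The 1 row called more accessible compares with 0.782% of all rows. At an adjusted p below 0.01 without a limit on the change, 23 rows (21.1%) were lower and 4 (3.67%) higher, against 6.54% and 3.34% of all rows. Values of the 3 libraries of each treatment did not overlap in 36 rows that were lower and 12 that were higher, beside 16.9% and 15.5% of all rows. The median log2 fold change was -0.17 in the locus and 0.01 over all rows, and 73 of 109 rows (67.0%) were below 0, against 48.8% of all rows. On the rest of chromosome 12, 2.1% of 8466 rows were called less accessible. Neighbouring rows can share fragments, so rows were not independent, and the called rows lay at 5 sites. Rows of the locus were also stronger, with a control median of 138 against 65.3 over all rows. The shares are therefore not directly comparable.

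**Figure D2:**
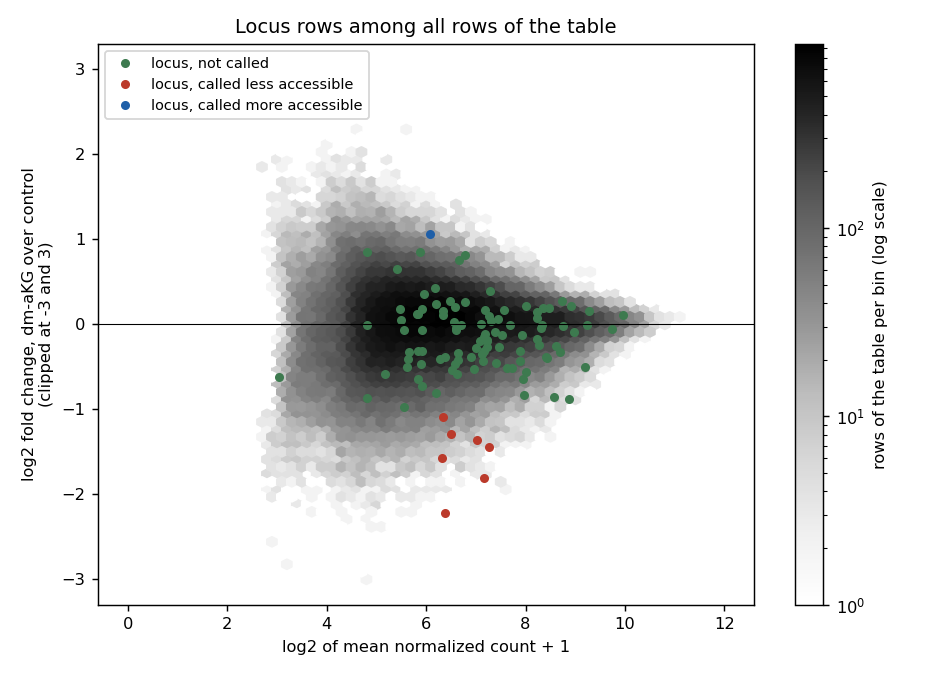
Mean normalized count over the 6 libraries (log2 of count + 1) against log2 fold change, dm-aKG over control. Grey bins hold all rows of the table, darker for more rows on a log scale, and coloured points are the 109 rows of the locus, 7 of them called less accessible (red) and 1 more accessible (blue).

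Changes were unevenly spread over the genes. Rows nearest to a CLEC4C start had a summed log2 difference of -0.59 (7 rows), those of SLC2A14 -0.34 (28 rows), those of NANOG -0.17 (9 rows), and those of SLC2A3 -0.16 (32 rows). Rows nearest to DPPA3 went the other way with 0.15 (5 rows). In these 5 sums the groups did not overlap, and the exact permutation test gave p = 0.1 for each. The 6 rows nearest to GDF3 had a log2 difference of -0.08, the groups overlapped and the exact permutation p was 0.3. The strongest of these rows held 390 of the 694 control counts. The median log2 fold change of the 6 rows was 0.22, and 4 of 6 were above 0, with groups that did not overlap. None of these 4 passed (adjusted p from 0.060 to 0.59 by edgeR), and 15.5% of all rows were higher without overlap. Only the strongest of the 6 rows passed, and it was lower. Among the remaining genes, NANOGNB, a homeobox gene next to NANOG, was at -0.45 over 5 rows, and APOBEC1, an RNA-editing cytidine deaminase, at -0.16 over 9 rows, both with p = 0.1 in the exact permutation test. FOXJ2, a forkhead factor, was at 0.18 over 6 rows with p = 0.1, and C3AR1, a complement receptor, at -0.82 over 2 rows of low count with p = 0.2, in the same exact permutation test.

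The order of levels among the 5 genes was taken from the strongest row of each, per 200 bp of row. In control this was 930 ± 47.1 at DPPA3, 868 ± 30.8 at SLC2A3, 539 ± 10.0 at CLEC4C, 515 ± 28.4 at NANOG and 375 ± 15.1 at GDF3 (SD, n = 3 libraries each). The control ranges of DPPA3 (886 to 980) and SLC2A3 (833 to 891) overlapped, as did those of CLEC4C (528 to 547) and NANOG (483 to 532). The ranges alone therefore did not separate these neighbours. With dm-aKG the order was 999 at DPPA3, 838 at SLC2A3, 482 at NANOG, 297 at CLEC4C and 286 at GDF3. CLEC4C had moved below NANOG, to libraries between 265 and 349, which overlapped those of GDF3 (263 to 314). The dm-aKG ranges of DPPA3 (917 to 1072) and SLC2A3 (751 to 951) overlapped as well, so ranges alone separated neither pair. All rows were read in the same libraries, and within each of the 6 libraries the DPPA3 row was above the SLC2A3 row. No paired test was run.

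**Figure D3:**
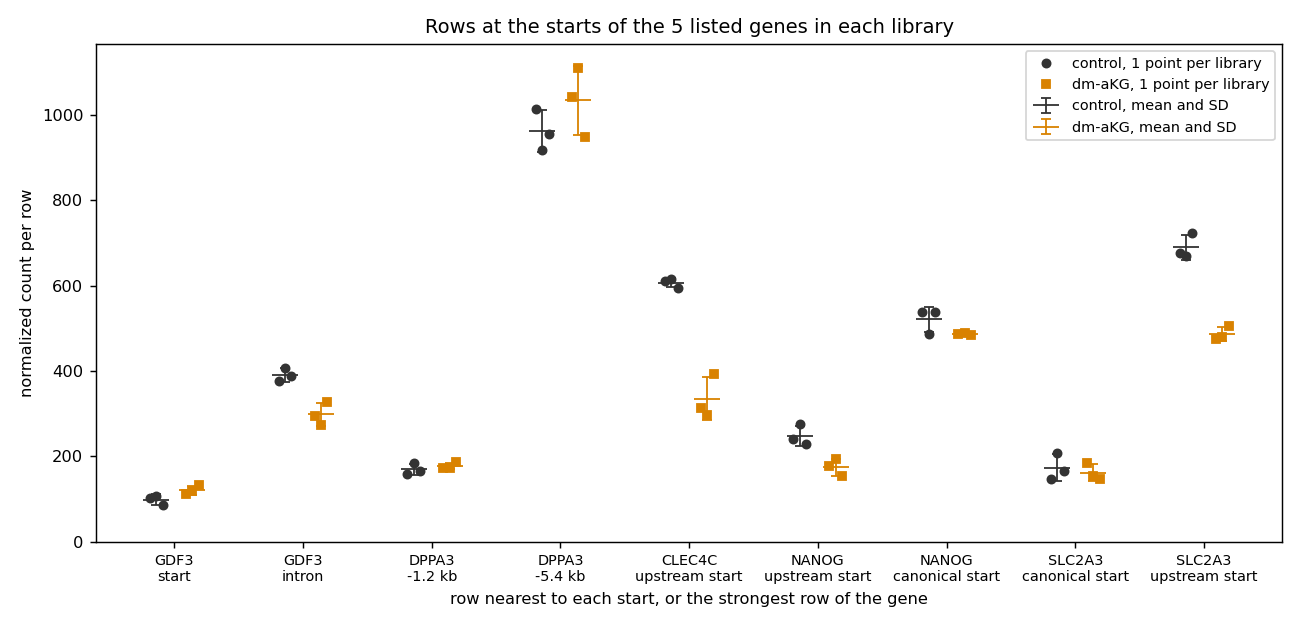
Normalized count per row in each of the 3 control and 3 dm-aKG libraries, with mean and SD, for rows at or near the starts of the 5 listed genes and for the strongest DPPA3 and GDF3 rows. The rows at the upstream starts of CLEC4C, NANOG and SLC2A3 are lower with dm-aKG in all 3 libraries, while those at the canonical NANOG and SLC2A3 starts overlap.

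NANOG has annotated starts at several positions. The row at the canonical start (chr12:7789224-7789425, the start being at 7789402) had 538, 487 and 537 normalized counts in control and 487, 489 and 485 with dm-aKG. The lowest control library lay within the dm-aKG range. Its log2 fold change was -0.09 with a standard error of 0.08 (adjusted p = 0.44 by edgeR). The row at the upstream start (chr12:7787643-7787856) had 241, 275 and 228 counts in control and 176, 192 and 153 with dm-aKG. All 3 dm-aKG libraries were below all controls, and the row fell by 0.51 on the log2 scale (standard error 0.12, adjusted p = 6.8e-04 by edgeR). It was the only 1 of the 9 rows nearest to a NANOG start that passed, and it did not pass without control replicate 2 (log2 fold change -0.42, adjusted p = 0.024 by edgeR) or with all libraries thinned to the smallest (-0.47, adjusted p = 0.014).

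DPPA3 had no row within 1 kb of its start. The nearest (chr12:7710143-7710342) lay 1191 bp upstream and had 157, 183 and 166 counts in control and 174, 173 and 186 with dm-aKG, with a log2 fold change of 0.06. The strongest row of the locus (chr12:7705957-7706163) lay 5373 bp upstream of DPPA3. It had 1014, 917 and 956 counts in control and 1043, 1110 and 949 with dm-aKG, so the groups overlapped and the log2 fold change of 0.11 did not pass (adjusted p = 0.27 by edgeR). The row called more accessible lay in a DPPA3 intron (chr12:7716498-7716697). It rose from 43.8, 39.5 and 47.4 counts to 96.1, 88.5 and 83.8, without overlap, by 1.06 on the log2 scale (standard error 0.20, adjusted p = 4.6e-05 by edgeR). It was a weak region in control and its summit was listed with dm-aKG only. It was just past the fold limit, and its log2 fold change was 0.993 without control replicate 2, 0.997 without dm-aKG replicate 1 and 0.95 with all libraries thinned to the smallest, where it was no longer called.

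GDF3 had 4 rows within 1 kb of its start. The row over the start (chr12:7695680-7695883) had a mean of 98.5 ± 11.9 in control and 120 ± 10.5 with dm-aKG (SD, n = 3), and its log2 fold change of 0.26 did not pass (adjusted p = 0.26 by edgeR). The strongest row (chr12:7694683-7694890), in an intron, had 376, 407 and 389 counts in control and 294, 273 and 326 with dm-aKG. The groups did not overlap, and the row fell by 0.40 on the log2 scale (standard error 0.09, adjusted p = 8.1e-04 by edgeR). It no longer passed without control replicate 2 (-0.36), without dm-aKG replicate 2 (-0.35) or with all libraries thinned to the smallest (-0.34).

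By the log2 difference of summed counts, CLEC4C had the largest difference among the 5 listed genes. No row lay within 1 kb of its canonical start, and its open site was at the start of a longer transcript, over 4 kb upstream. The row over that start (chr12:7751422-7751646) had 612, 615 and 594 counts in control and 314, 298 and 392 with dm-aKG. It was far below control in every dm-aKG library, and fell by 0.88 on the log2 scale (standard error 0.08, adjusted p = 3.4e-14 by edgeR). The next row of this site (chr12:7751103-7751302) had 112, 152 and 121 counts in control and 58.8, 43.6 and 52.4 with dm-aKG, and fell by 1.29 (adjusted p = 3.5e-08 by edgeR). The row beside it (chr12:7750832-7751037) had 95.7, 125 and 135 counts in control and 43.7, 39.8 and 32.9 with dm-aKG, and fell by 1.57 (adjusted p = 1.1e-09 by edgeR). Neither row overlapped between the groups. Of the 4 rows of the site 3 passed, and 2 of them were called.

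SLC2A3 rows at the canonical start (chr12:7936101-7936311 and chr12:7936321-7936526) had log2 fold changes of -0.09 and 0.04 and did not pass. Its strongest row (chr12:7959788-7959988), in an intron, had 895, 884 and 837 counts in control and 817, 956 and 754 with dm-aKG, and the groups overlapped (log2 fold change -0.05, adjusted p = 0.65 by edgeR). The row at the upstream start (chr12:8018892-8019249) had 676, 669 and 723 counts in control and 474, 480 and 504 with dm-aKG. There all dm-aKG libraries were lower, and the row fell by 0.51 on the log2 scale (standard error 0.07, adjusted p = 1.5e-07 by edgeR). In all, 5 of the 32 rows nearest to SLC2A3 were lower and 1 was higher, an intron row at chr12:7948968-7949167 (41.1 to 74.4 counts on average, log2 fold change 0.86, adjusted p = 2.4e-03 by edgeR). The other 4 lower rows lay in introns. Those at chr12:7941014-7941216 and chr12:7933304-7933512 had log2 fold changes of -0.51 and -0.38, and those at chr12:7971948-7972147 and chr12:7954063-7954267 had -0.59 and -0.43. The first did not pass without dm-aKG replicate 2 (-0.46) or with all libraries thinned to the smallest (-0.47), and the second without control replicate 1 (-0.35) or dm-aKG replicate 3 (-0.31).

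**Figure D4:**
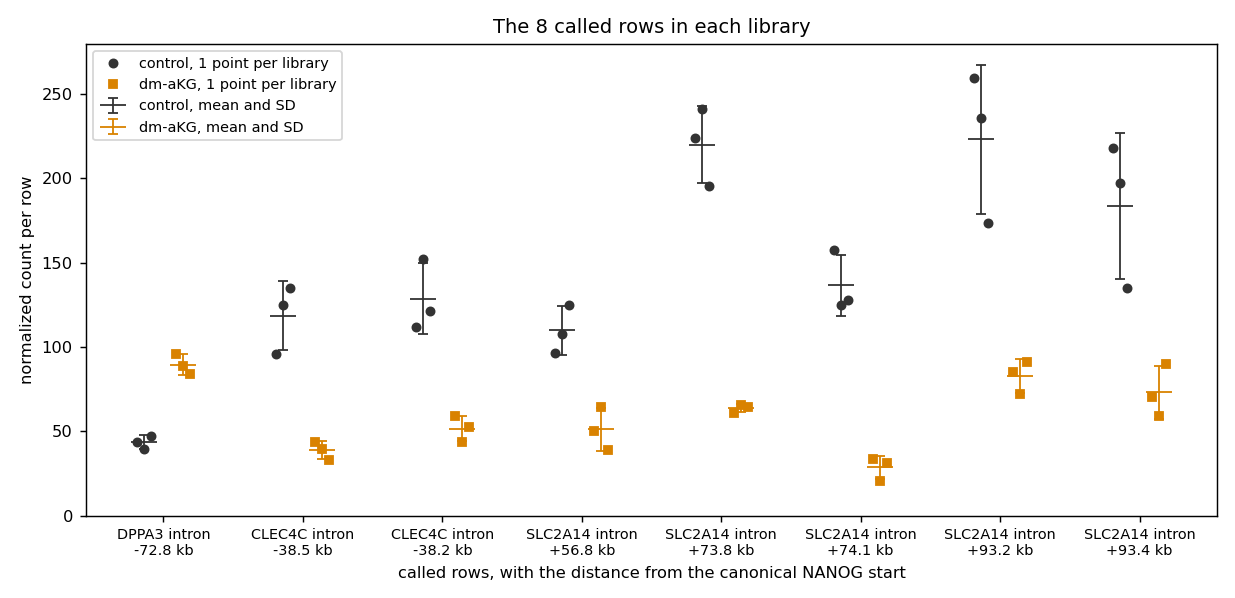
Normalized count per row of the 8 called rows in each of the 3 control (circles) and 3 dm-aKG (squares) libraries, with mean and SD, labelled by the intron they lie in and their distance from the canonical NANOG start. The 2 treatments do not overlap in any of the 8 rows.

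The other 5 called rows lay in introns of SLC2A14, at 3 sites. At the middle site the row chr12:7863118-7863317 had 224, 241 and 196 counts in control and 61.0, 65.4 and 64.4 with dm-aKG. It fell by 1.81 on the log2 scale, to 0.286 of control (standard error 0.15, adjusted p = 4.3e-17 by edgeR). The row chr12:7863426-7863625 beside it, 70 bp upstream of an alternative SLC2A14 start, had 157, 125 and 127 counts in control and 33.7, 20.5 and 31.4 with dm-aKG. This was the largest change of the locus, a fall of 2.22 to 0.215 of control (standard error 0.20, adjusted p = 3.1e-15 by edgeR).

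At the site of the 3 that lay farthest from NANOG all 4 rows were lower. The row chr12:7882488-7882687 had 259, 236 and 174 counts in control and 85.3, 71.8 and 91.3 with dm-aKG, and fell by 1.44 (adjusted p = 2.8e-13 by edgeR). The row chr12:7882704-7882903 had 218, 197 and 135 counts in control and 70.3, 59.0 and 89.8 with dm-aKG, and fell by 1.36 (adjusted p = 1.2e-10 by edgeR). Control replicate 3 was the lowest control library in both, but still above every dm-aKG library. The other 2 rows of the site, chr12:7881579-7881780 and chr12:7881805-7882199, fell by 0.64 and 0.85 and did not reach the fold limit.

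At the site of the 3 nearest to NANOG the row chr12:7846063-7846262 had 96.6, 108 and 125 counts in control and 50.2, 64.1 and 38.9 with dm-aKG, and fell by 1.09 (adjusted p = 8.7e-06 by edgeR). It was just inside the fold limit, and was at -0.99 without control replicate 3 and at -0.96 without dm-aKG replicate 3. A neighbouring intron row, chr12:7856621-7856820, was 1 of the 4 that were higher, at 78.5 counts in control and 139 with dm-aKG (log2 fold change 0.81, adjusted p = 7.6e-05 by edgeR). At the canonical SLC2A14 start the 3 rows had log2 fold changes between -0.20 and -0.07 and none passed.

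In the flanks, a row in a pseudogene beyond APOBEC1 (chr12:7640601-7640809) fell by 0.83 on the log2 scale, from 320 to 182 counts on average (adjusted p = 3.9e-09 by edgeR). A row upstream of NANOGNB (chr12:7758384-7758592) fell by 0.55, while the row over the NANOGNB start (chr12:7765162-7765361) was at 61.6 and 51.1 counts and did not pass. At FOXJ2 the row over the canonical start (chr12:8032559-8032772) was at 237 and 274 counts and did not pass, and the row at its next start (chr12:8033186-8033400) rose from 75.5 to 125 counts, by 0.76 on the log2 scale (adjusted p = 4.5e-04 by edgeR), but did not pass without control replicate 2 or dm-aKG replicate 1 (0.64 in both) or with all libraries thinned to the smallest (0.68). The row nearest to the APOBEC1 start (chr12:7667247-7667460) was at 103 and 104 counts. The weakest rows of the locus, at C3AR1 (chr12:8063117-8063316), in CLEC4C (chr12:7731498-7731697) and at an SLC2A3 exon (chr12:7919656-7919855), had control means of 8.95, 19.0 and 27.8, and none passed.

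The tandem duplication allowed near-identical sequences to be compared, and 13 pairs of rows, 26 rows in all, aligned to each other with 86.4% to 99.5% identity. In 11 of the 13 pairs both copies had log2 fold changes of the same sign, and the exceptions were chr12:7812913-7813123 with its copy (0.13 and -0.41) and chr12:7825856-7826055 with its copy (-0.01 and 0.01). Since 22 of the 26 rows were below 0, most pairs would share a sign even without a link between copies. None of the 26 rows was called, 7 of them were lower and 0 higher, and 6 pairs had at least 1 row that passed. The upstream NANOG start and its copy in SLC2A14 (chr12:7890683-7890889), 95.8% identical, were the only pair in which both passed, with falls of 0.51 and 0.32 and adjusted p of 6.8e-04 and 4.9e-03 by edgeR. The copy did not pass with DESeq2 (adjusted p = 0.030), nor without control replicate 2 or 3 or dm-aKG replicate 2, where it was at -0.31, -0.27 and -0.23. The canonical NANOG start and its copy at NANOGP1 (chr12:7892169-7892374), 94.1% identical, were at -0.09 and -0.04, with control means of 521 and 321. Both shared the OCT-SOX and SOX words printed above, and neither passed. The upstream SLC2A3 start and its copy at the canonical SLC2A14 start, 90.9% identical, were at -0.51 and -0.17.

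The ratio between the 2 copies of a pair was compared between treatments with an exact permutation test. The exact permutation p was 0.1, the smallest possible, in 2 of 13 pairs, that of chr12:7812913-7813123 and that of the upstream SLC2A3 start, and 0.65 at the lowest after Benjamini-Hochberg adjustment. These pairs were picked for description after their values had been seen. Reads that fit both copies equally well cannot be assigned, so the values of pairs with few differing bases are uncertain.

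**Figure D5:**
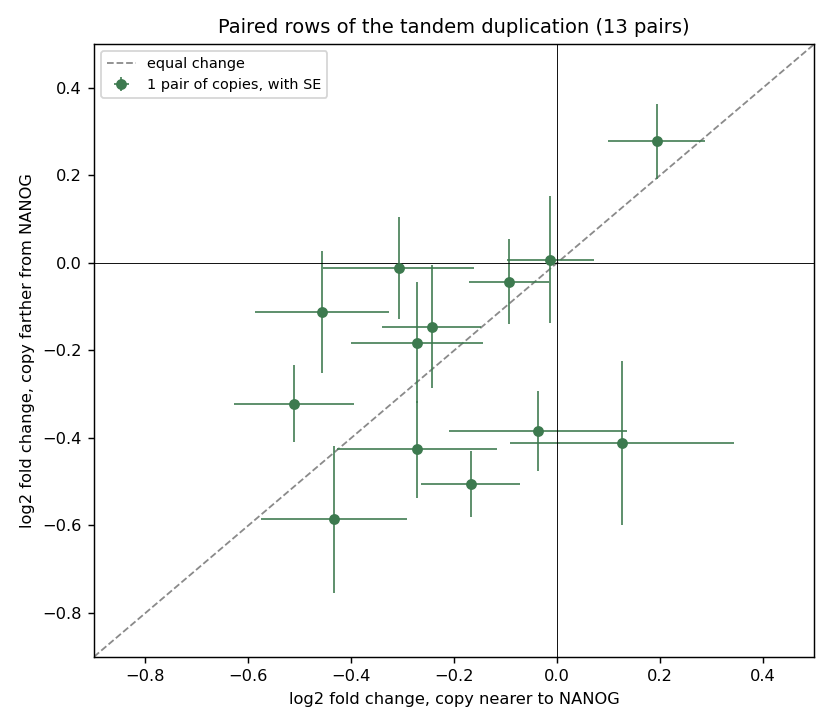
Log2 fold change, dm-aKG over control, of the 13 pairs of rows that align to each other across the tandem duplication, with standard errors. The horizontal axis is the copy nearer to NANOG and the vertical axis the farther copy. In 11 pairs both copies have the same sign, while 22 of the 26 rows are below 0.

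Some rows also resembled many other places in the genome. In a search of each row against hg38, 16 rows had 10 or more copies elsewhere over at least 80% of their length. Of these 16, 4 were called less accessible, 7 were lower and 0 higher, with a median log2 fold change of -0.64. Among the other 93 rows 3 were called less and 1 more accessible, 16 were lower and 4 higher, with a median of -0.09. The called rows with copies were chr12:7751103-7751302 with 16541, chr12:7863426-7863625 with 11388, chr12:7863118-7863317 with 150 and chr12:7750832-7751037 with 17. The other 4 called rows had 0 copies at this limit of length, and shorter repeated stretches in them were not counted. At the site of 2 of these, the rows chr12:7881579-7881780 and chr12:7881805-7882199 had 894 and 394 copies. This split was made after the values had been seen, the share of such rows in the whole table was not computed, and the part of read placement in these changes was not tested.

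The words of transcription factors were searched for in the 200 bp around each row's centre, on both strands. An OCT-SOX word (a SOX word next to an OCT word, up to 2 mismatches to the consensus) was found in 4 of 109 rows, 3.67%, against 0.758% of all rows. An OCT word (ATGCAAAT, which also ends the OCT-SOX word) was in 2 of 109 rows and in 3918 of all rows. The SOX word (ACAAAGG or ACAATGG) was in 9 rows, 8.26% against 7.1%, and the AP-1 word (TGANTCA) in 13 rows, 11.9% against 6.33%. KLF (GGGNGTGG), TEAD (GGAATG) and NRF2 (TGACNNNGC) words were in 13, 16 and 10 rows, 11.9%, 14.7% and 9.17%, against 13.7%, 14.6% and 9.56%. Tandem copies counted as separate rows in these shares. The OCT-SOX and SOX shares hold both the canonical NANOG start and its copy at NANOGP1. The AP-1 share holds both chr12:7812913-7813123 and its copy. Of the 7 less accessible rows 2 held a SOX word, 1 an NRF2 word and 0 any of the others. The SOX words were in chr12:7846063-7846262 and in chr12:7863426-7863625, and the latter row had 11388 copies elsewhere. Repeats were not annotated, and whether these words are bound by a factor was not tested. Among the 4 rows with an OCT-SOX word, only the SLC2A3 intron row chr12:7933304-7933512 was lower in the test, while the rows at the canonical NANOG start, at NANOGP1 and at chr12:7758776-7758975 upstream of NANOGNB did not pass, and both rows with the exact OCT word, chr12:7646235-7646434 and chr12:7758384-7758592, were lower by 0.97 and 0.55. The median GC content was 48.5% in the locus, 48.0% in the 7 less accessible rows and 55.5% over all rows.

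The deposited peak lists, 1 per treatment, placed summits of both treatments in 81 rows of the locus. A further 17 rows had a control summit alone, of which 5 were called less accessible and 8 were lower, and 11 rows had a dm-aKG summit alone, of which 1 was called more and 1 less accessible. The latter was the CLEC4C row chr12:7751103-7751302. The lists were made from the same libraries as the counts, so a summit in 1 list alone favours a higher count in that treatment. Of the rows with a control summit alone 94.1% were below 0, against 27.3% of those with a dm-aKG summit alone. This split is thus no separate support for the calls.

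The promoters of 25 other genes of the pluripotency network were compared with the locus. All 25 had a row, and 5 passed as lower, KLF17, FOXD3, DPPA4, FGF4 and TDGF1, while SUSD2 was higher and 0 were called. Their median log2 fold change was -0.08, close to the -0.09 of the canonical NANOG start. Of all rows 6.54% passed as lower and 3.34% as higher. The 25 rows were the strongest near each start, with a control median of 404 against 65.3 over all rows, so the shares are not directly comparable. TDGF1, a co-receptor of NODAL and GDF3, had 508 counts in control and 371 with dm-aKG (log2 fold change -0.46, adjusted p = 2.2e-05 by edgeR). Among these 25 promoters, the log2 counts of the canonical NANOG start over the 6 libraries were most like those of SALL4, PRDM14 and KLF17. Their Pearson r was 0.868, 0.828 and 0.800. The primed marker DUSP6, which is not in this list, had an r of 0.840, so the likeness was not particular to the list. These 6 points include the treatment difference and share library depth, so the values are a description only.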

How the data were processed

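ATAC-seq libraries of H9 nES cells, 3 control and 3 dm-aKG, were grouped by the treatment in the labels. The authors ran the ENCODE ATAC-seq pipeline once per treatment, with trimming, Bowtie 2 alignment to hg38, filtering and MACS2 peak calls, which gave 1 reproducible peak list for each. They cut peaks to 200 bp around the summit, merged both lists and counted reads per merged peak with bedtools 2.28.0, and these raw counts were deposited. Of the deposited peak lists only positions and summit offsets were used for the text. Their pipeline score, their ratio of signal to background (fold enrichment) and their −log10 of p-values and q-values, as the authors deposited them, carry no result here.

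All 171517 rows were fitted with edgeR 4.0.16 in R 4.3.3 (TMM scaling, quasi-likelihood test, treatment as the only term). p-values were adjusted by Benjamini-Hochberg over all rows. Passing meant an adjusted p below 0.01, and calls needed a log2 fold change beyond 1 in either direction as well. Standard errors were the log2 fold change over the square root of the F statistic. The fit was tested on simulated counts. No column of the count table was left unused. Genes and starts came from GENCODE 44, and copies were sought with blastn 2.17.0 (e-value 1e-10, at least 80% of the row). A tandem pair needed 100 aligned bases that overlap another row.

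Rows named were all called rows, the strongest row within 1 kb of a start of each gene (or the nearest), the strongest row of each listed gene, up to 12 further rows that passed, and the 3 strongest and 3 weakest. Other rows named for copies, words or their position at a start were picked after their values were seen. The members and lists were chosen with earlier results of these data known. Alternatives were DESeq2 1.42.0, limma 3.58.1, RLE, total, upper quartile and loess scaling, a minimum of 10 counts, autosomal rows, thinning to the smallest library, a replicate block, leaving out each library, an adjusted p of 0.05, flanks of 0 and 100 kb, and rows of both peak lists. Depth sets the precision of weak rows, and the standard error was 0.152 at the median and 0.565 at most. The sequences of the other 6 called rows are not reported here.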

Additional observations from a re-analysis of the deposited data

How the results depend on the processing

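The counts of called rows held under most alternatives. Thinning all libraries to the smallest left 7 rows called less and 0 more accessible, 15 lower and 2 higher. Leaving out each library gave 6 to 8 rows called less accessible, 0 to 1 more accessible, 15 to 22 lower and 2 to 5 higher. Without control replicate 2 there were 15 lower, 2 higher and 0 called more accessible, and without dm-aKG replicate 1 also 0 called more accessible. Limiting the count to the 86 rows that overlap peaks of both lists gave 2 called less and 0 more accessible, and 1 higher. This limit dropped the 5 called SLC2A14 rows, which overlapped no dm-aKG peak, and the called DPPA3 row, which overlapped no control peak. The remaining alternatives gave 7 less and 1 more accessible, with DESeq2 giving 17 lower and 3 higher. The replicate block gave 7, 1, 23 and 4, the same counts as without it, and a median log2 fold change of -0.17. Same-numbered libraries did not deviate together over all rows (r from -0.016 to 0.013). This gave no sign that the numbers pair samples, but counting noise in the many weak rows means that it cannot exclude pairing. The summed count stayed lower with dm-aKG, by 0.15 to 0.22 on the log2 scale. Signs turned only in rows whose log2 fold change lay near 0. The row chr12:7667247-7667460, at -0.0053, was at 0.0053 with DESeq2, 0.011 with total and 0.010 with upper quartile scaling, 0.14 when thinned, and from -0.072 to 0.13 without each library in turn. The row chr12:7919656-7919855, at -0.012, was at 0.021 with limma, 0.0024 with loess, 0.0060 with total and 0.0039 with upper quartile scaling, and from -0.27 to 0.17 without each library in turn. The row chr12:7710143-7710342 was at -0.043 when thinned, and chr12:7959788-7959988 from -0.15 to 0.011 without each library in turn. The cause of these shifts was not tested.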
